A study of Mus musculus with 8 samples.

Results

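Transcript levels of 48 genes of the lysosome were followed in mouse bone-marrow macrophages across genotype and IL-6 treatment. The genes were chosen by symbol, as 48 of the 55376 genes in the deposited count table. They comprised 3 transcription factors of the TFEB family, 5 proteins of the lysosomal membrane, 21 hydrolases, 4 lumenal cofactors or carriers, and 15 genes of the V-ATPase. All 48 passed the filter on low counts that left 13721 tested genes.

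The libraries came from macrophages labelled DNMT3A-HET (HET) and given IL-6, HET controls, wild-type (WT) macrophages given IL-6, and WT controls, with 2 libraries in each of the 4 groups. DNMT3A is a DNA methyltransferase, and IL-6 is a cytokine that signals through STAT3. In all groups, marrow of 13-week-old male mice, 3 per genotype, was grown in medium with M-CSF at 50 ng/mL, the growth factor that drives marrow cells to become macrophages. IL-6 at 10 ng/mL was present from day 6 for 2 days, and polyadenylated RNA was taken from all groups on day 8. The labels name neither the DNMT3A allele nor the mouse behind each library, and leave unsaid whether cells of several mice were mixed. The p-values therefore reflect only how far the libraries of a group lie apart, some of which can be technical. RNA per cell and the number of cells cannot be told apart in such bulk libraries.

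Lysosomes break down proteins, lipids, glycogen and the sugar chains of glycoproteins and proteoglycans, and macrophages depend on them to digest what they engulf. The hydrolases work at acid pH, which the V-ATPase maintains: its cytosolic V1 sector splits ATP and its membrane V0 sector carries protons into the lumen. TFEB, TFE3 and MITF are related transcription factors that bind the E-box CACGTG, and in mammalian cells TFEB and TFE3 leave the cytosol for the nucleus when the kinase mTORC1 is inactive, where they activate many lysosomal genes.

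Since the TFEB family binds CACGTG, the promoters of the members were searched for it. RefSeq windows (build GRCm38.p6, from 250 bases before to 50 bases after a gene's start) were at hand for 41 of the 48 members. Letters were searched on both strands, as CACGTG, as TCACGTG, which contains it, and as TCACGTGA, which contains both. CACGTG was present in 13 of 41 member promoters (31.7%), against 8.09% of 27025 promoters of all genes and 11.8% of 9988 promoters of tested genes. TCACGTG was present in the same 13 promoters (31.7%), against 4.29% and 7.09%. TCACGTGA was present in 6 (14.6%), against 1.12% and 2.23%. Among the classes, TCACGTG was found in 4 of 11 V-ATPase promoters, 6 of 19 hydrolase promoters, 3 of 8 promoters of membrane and lumenal proteins and 0 of 3 promoters of the TFEB family. These matches are descriptions of the letters and do not show that a factor was bound. The stretches around the motif are shown for 8 of the 13 genes, those whose RNA passed a test in at least 1 comparison. Among them, Lamp1 held 4 copies. Each is written 5′ to 3′ on the gene's own strand, with capitals marking TCACGTG, its reverse complement CACGTGA, or the longer palindrome TCACGTGA.
Lamp1: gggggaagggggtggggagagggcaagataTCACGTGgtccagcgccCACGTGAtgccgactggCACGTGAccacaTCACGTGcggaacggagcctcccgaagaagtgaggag
Mcoln1: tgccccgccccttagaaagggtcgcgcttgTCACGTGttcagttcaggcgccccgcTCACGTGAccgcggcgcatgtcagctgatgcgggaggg
Gaa: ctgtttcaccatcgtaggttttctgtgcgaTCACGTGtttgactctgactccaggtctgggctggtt
Naglu: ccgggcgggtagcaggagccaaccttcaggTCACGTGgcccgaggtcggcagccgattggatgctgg
Sgsh: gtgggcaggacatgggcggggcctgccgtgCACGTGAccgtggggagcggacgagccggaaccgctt
Lgmn: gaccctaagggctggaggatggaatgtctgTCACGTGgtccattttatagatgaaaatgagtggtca
Atp6v1a: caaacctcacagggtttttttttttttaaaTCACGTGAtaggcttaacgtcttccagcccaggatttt
Atp6v0b: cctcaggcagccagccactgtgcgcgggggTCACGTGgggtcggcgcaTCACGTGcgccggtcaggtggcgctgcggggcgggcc
The stretches lie at Lamp1 chr8:13159069-13159181 (plus strand), Mcoln1 chr8:3500417-3500510 (plus strand), Gaa chr11:119267792-119267858 (plus strand), Naglu chr11:101069990-101070056 (plus strand), Sgsh chr11:119355503-119355569 (minus strand), Lgmn chr12:102439106-102439172 (minus strand), Atp6v1a chr16:44139354-44139421 (minus strand) and Atp6v0b chr4:117887312-117887396 (minus strand). The other 5 promoters with the motif were those of Cln3, Gla, Glb1, Atp6v0d1 and Atp6v0e.

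Gene counts totalled 18926641 to 50137897 per library, and the deepest was HET IL-6 number 2. Dnmt3a, the gene named in the genotype, had 140 and 213 library-scaled counts (CPM, scaled by TMM) in HET IL-6 libraries, 166 and 248 in HET controls, 175 and 183 in WT IL-6 libraries, and 275 and 244 in WT controls. HET IL-6 number 2 stood above both WT IL-6 libraries, and HET control number 2 stood between the 2 WT controls, so total Dnmt3a RNA did not separate the genotypes; HET below means the libraries labelled so, and each comparison's count of members called is also given without both HET number 2 libraries. All 9 macrophage markers exceeded 1 CPM in every library, and summed to 12017 to 14298 CPM. Sums over 8 neutrophil markers were 1.28 to 2.89 CPM and over 8 stromal markers 1.34 to 11.7 CPM, while 7 osteoclast markers summed to 15.8 to 26.2 CPM in HET IL-6, 15.7 to 18.9 in HET control, 14.2 to 15.3 in WT IL-6 and 22.2 to 23.1 in WT control libraries. The part of these in the results was not tested. Libraries of a WT group lay further apart than those of a HET group, with a median absolute log2 difference per gene of 0.16 in WT IL-6 and 0.18 in WT control libraries, against 0.089 in HET IL-6 and 0.10 in HET control libraries.

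Most members were abundant. Per length (RPKM, CPM per kilobase of exon), the mean over the 8 libraries was highest for Psap, the precursor of the saposins that present sphingolipids to hydrolases, at 1779 RPKM, at percentile 99.9 of tested genes. Grn, which encodes progranulin, followed with 1057 RPKM, then Lamp1, a major glycoprotein of the lysosomal membrane, with 739 RPKM, and Lgmn, the asparaginyl endopeptidase legumain, with 708 RPKM. The transcription factors were the lowest as a class. Mitf averaged 14.8, Tfe3 13.1 and Tfeb 3.18 RPKM, against a median of 4.63 RPKM over all tested genes. V-ATPase genes had a median of 93.6 RPKM and lay within a 13.6-fold range, between Atp6v1h with 16.2 RPKM and Atp6ap1 with 220 RPKM. Hydrolases had a median of 48.6 RPKM and a 53.6-fold range, between Smpd1, the acid sphingomyelinase, with 13.2 RPKM and Lgmn. Among neighbours in the order of levels, Psap and Grn, Hexa and Lipa, Atp6v0a1 and Glb1, Tfe3 and Mcoln1, and Mcoln1 and Tfeb had separate ranges over the libraries, and all other neighbours overlapped.

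**Figure D1:**
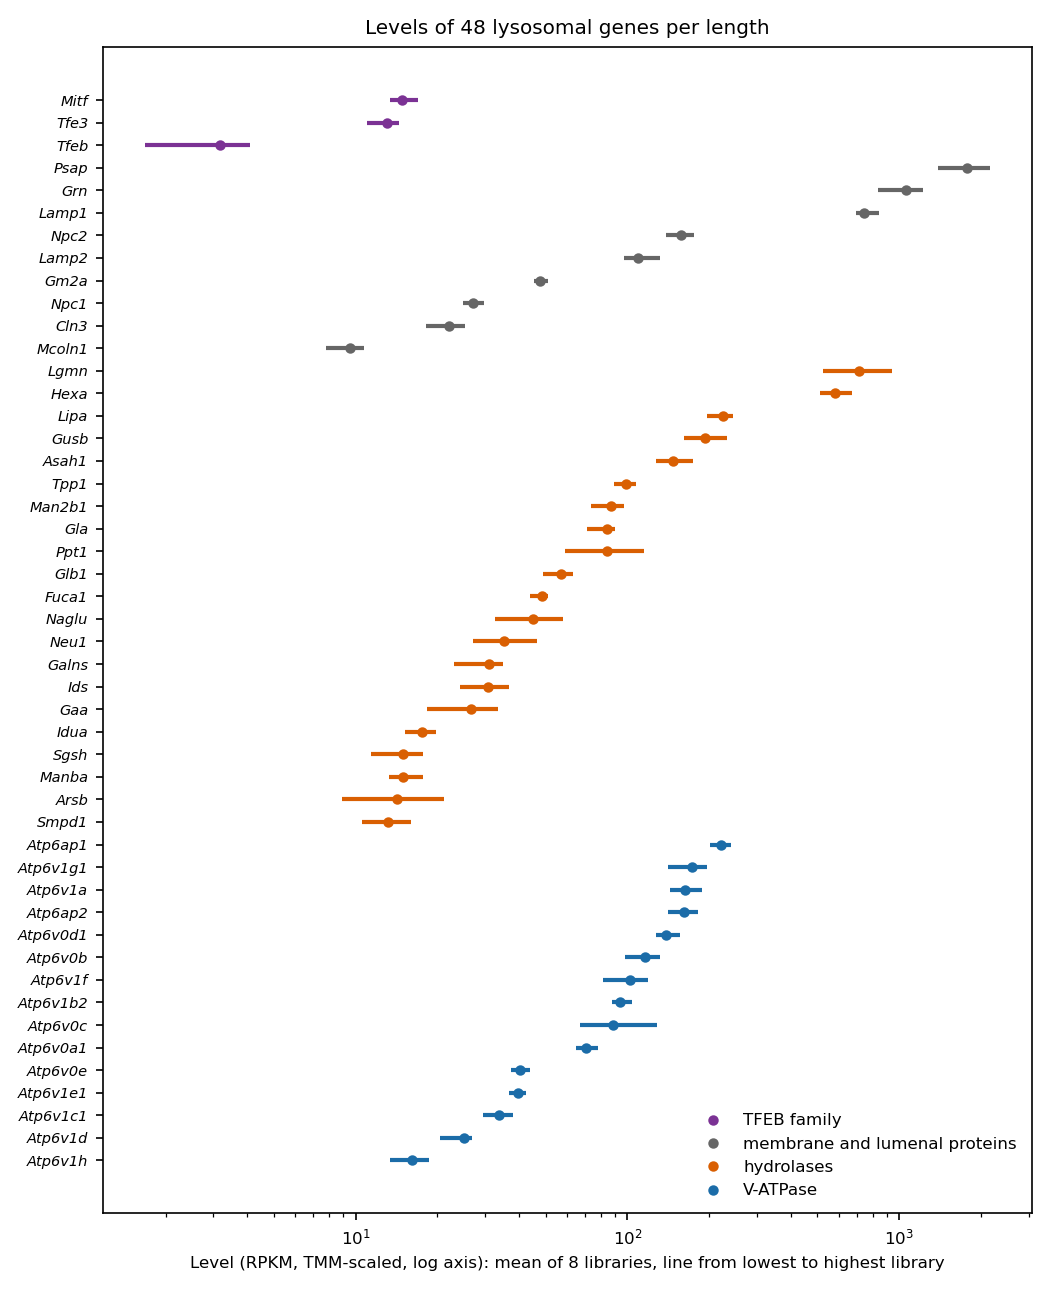
RPKM of each member on a log axis, with a point for the mean of 8 libraries and a line for the lowest to highest library, coloured by class. Psap, Grn, Lamp1 and Lgmn lie highest, and Tfeb, at 3.18 RPKM, lies lowest.

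IL-6 against control, averaged over the genotypes, changed 11 of the 48 members in edgeR's quasi-likelihood test at an adjusted p under 0.05. Of these, 8 rose (16.7% of members) and 3 fell (6.25%), while 10.8% of all tested genes rose and 12.8% fell. The median log2 fold change over the members was 0.05, against -0.01 over all tested genes. The 8 genes that rose were the hydrolase genes Ppt1, Lgmn, Gusb, Neu1, Galns and Manba and the V-ATPase genes Atp6v1h and Atp6v0c. The 3 that fell were Arsb, Ids and Tfeb. Without both HET number 2 libraries, which leaves 1 library in each HET group, 4 members were called, namely Ppt1, Lgmn, Arsb and Tfeb.

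Ppt1 (chr4:122836242-122859175, mm10) encodes the thioesterase that removes palmitate from proteins in the lysosome. It had 356 and 356 CPM in HET IL-6 libraries, against 221 and 216 CPM in HET controls, and 423 and 396 CPM in WT IL-6 libraries, against 234 and 262 CPM in WT controls. All 4 IL-6 libraries lay above all 4 controls, and the averaged log2 fold change was 0.72 ± 0.06 (SE; edgeR adjusted p = 4.75e-07). The response was 0.71 ± 0.08 in HET and 0.73 ± 0.08 in WT. Of its exons, 3.51% overlapped Cap1, a gene with 266539 counts over the libraries against 65818 for Ppt1, so these reads are uncertain there.

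Lgmn (chr12:102394084-102439813) had 2100 and 2187 CPM in HET IL-6 libraries, against 1216 and 1335 CPM in HET controls, and 1706 and 1858 CPM in WT IL-6 libraries, against 1496 and 1263 CPM in WT controls. IL-6 libraries were higher in each genotype without overlap, with an averaged log2 fold change of 0.56 ± 0.07 (edgeR adjusted p = 2.35e-05). The rise was 0.75 ± 0.09 in HET and 0.37 ± 0.09 in WT (edgeR adjusted p = 7.12e-05 and 0.0136), and the difference between the 2 responses, 0.38 ± 0.13, did not pass the test (edgeR adjusted p = 0.102). In WT the call was lost without WT IL-6 number 2 or without WT control number 2, where the highest edgeR adjusted p was 0.0741.

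Of the sugar-cleaving hydrolases, Gusb, Manba and Neu1 rose. Gusb, the beta-glucuronidase, had 918 and 941 CPM in HET IL-6 libraries against 801 and 736 CPM in HET controls, and 993 and 1056 CPM in WT IL-6 libraries against 817 and 758 CPM in WT controls. Its averaged log2 fold change was 0.33 ± 0.06 (edgeR adjusted p = 0.000795). Manba, the beta-mannosidase, rose by 0.28 ± 0.05 (edgeR adjusted p = 0.00139), and Neu1, the sialidase, by 0.31 ± 0.07 (edgeR adjusted p = 0.00367). The other 8 glycosidases did not pass the averaged test, with log2 fold changes between -0.18 for Man2b1, an alpha-mannosidase, and 0.15 for Glb1, the beta-galactosidase. Hexa, the alpha chain of beta-hexosaminidase A, was among them at 0.05 ± 0.07.

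The sulfatases moved in opposite directions. Arsb (chr13:93771630-93943016), which acts on dermatan sulfate, had 54.4 and 53.9 CPM in HET IL-6 libraries, against 128 and 122 CPM in HET controls, and 59.3 and 59.8 CPM in WT IL-6 libraries, against 112 and 97.2 CPM in WT controls. Every IL-6 library lay below every control, and Arsb fell by 1.01 ± 0.06 on the log2 scale (edgeR adjusted p = 2.07e-08), the largest change among the members in this comparison. Antisense gene models overlap 39.9% of its exons, and both partners together had 6 counts in the 8 libraries. With the strand setting unknown, reads in the overlap could have been left out of both genes, and this was not tested. Ids, which removes sulfate from iduronic acid, fell by 0.27 ± 0.06 (edgeR adjusted p = 0.00401). Galns, which acts on keratan sulfate, rose by 0.31 ± 0.06 (edgeR adjusted p = 0.00253). Sgsh, the heparan sulfamidase, had a log2 fold change of -0.16 ± 0.07 that did not pass (edgeR adjusted p = 0.134).

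Among the transcription factors, Tfeb (chr17:47737030-47792419) fell and the others did not pass the test. Tfeb had 19.5 and 19.1 CPM in HET IL-6 libraries, against 21.3 and 23.3 CPM in HET controls, and 12.5 and 9.54 CPM in WT IL-6 libraries, against 20.1 and 18.8 CPM in WT controls. The 2 WT IL-6 libraries were the lowest of all 8. The averaged log2 fold change was -0.51 ± 0.09 (edgeR adjusted p = 0.000602), with -0.21 ± 0.12 in HET (edgeR adjusted p = 0.262) and -0.81 ± 0.13 in WT (edgeR adjusted p = 0.000459). Tfe3 had a change of -0.01 ± 0.06 and Mitf of -0.12 ± 0.06. None of the 9 membrane and lumenal proteins passed the averaged edgeR test, and their log2 fold changes lay between -0.14 for Grn and 0.07 for Lamp2.

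Of the V-ATPase genes, 2 of 15 rose and 0 fell (edgeR, with 4 higher and 0 lower at an unadjusted p under 0.05, and 4 and 0 called by DESeq2). By edgeR, 10.8% of all tested genes rose and 12.8% fell. No count over all tested genes was taken for the unadjusted p or for DESeq2. Atp6v1h, a regulatory V1 subunit, had 160 and 166 CPM in HET IL-6 libraries against 131 and 136 CPM in HET controls, and 182 and 167 CPM in WT IL-6 libraries against 157 and 162 CPM in WT controls. Its averaged log2 fold change was 0.21 ± 0.05 (edgeR adjusted p = 0.0116). The call was lost without HET IL-6 number 2 or HET control number 1, with an edgeR adjusted p of up to 0.0726. Atp6v0c, the proteolipid of the V0 ring, averaged 0.18 ± 0.06 (edgeR adjusted p = 0.0449), and that call was lost without any of 4 libraries, namely HET IL-6 number 2, either HET control or WT IL-6 number 1. Atp6v0c responded unlike in the genotypes, as described below for the difference.

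**Figure D2:**
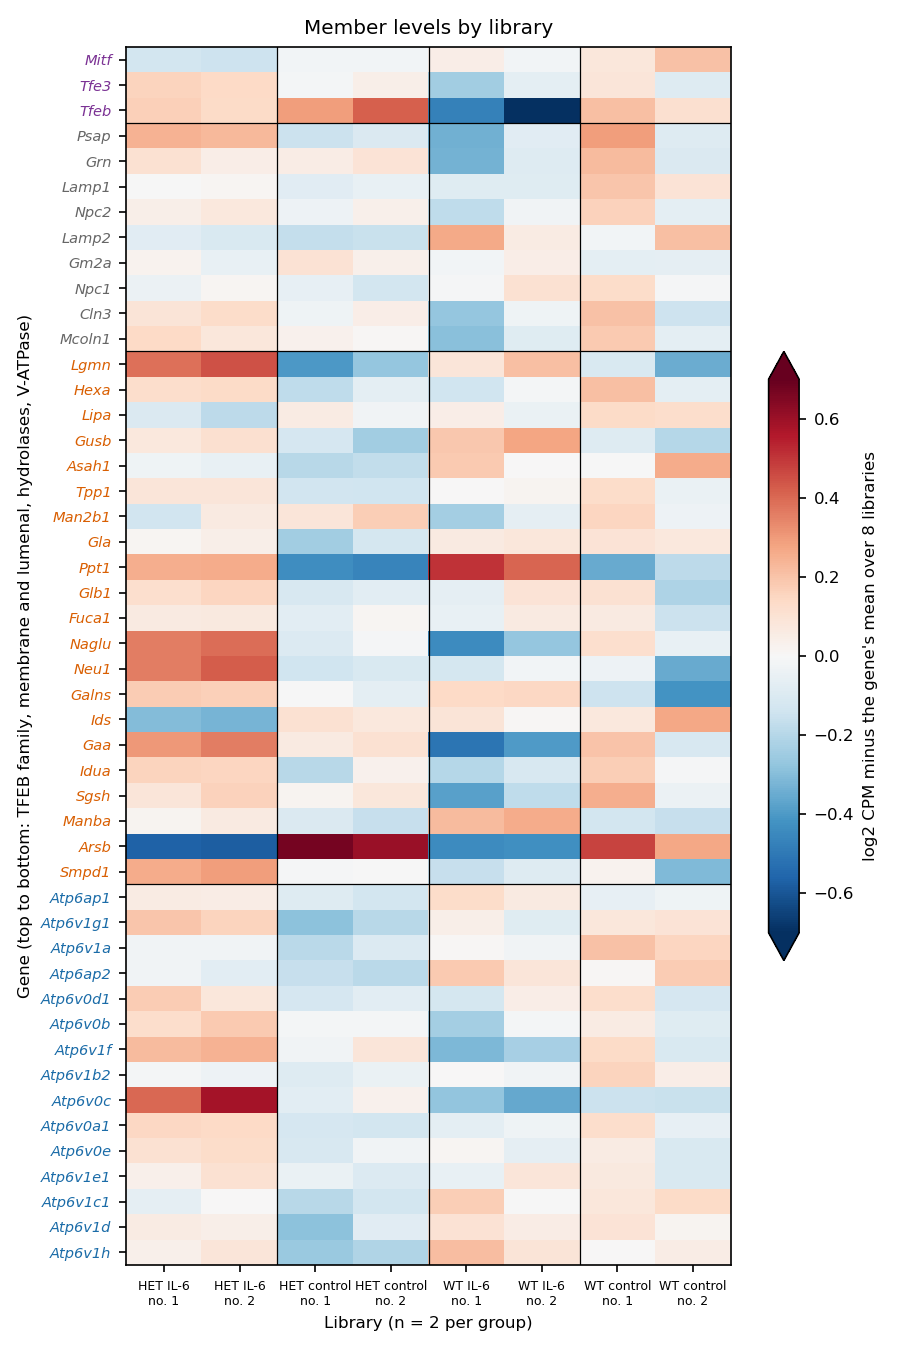
Log2 CPM of each member minus its own mean over 8 libraries, with libraries in columns (HET IL-6, HET control, WT IL-6, WT control, 2 each) and genes in rows ordered by class. Arsb is low and Ppt1 is high in all 4 IL-6 libraries, while Naglu, Gaa and Atp6v0c are highest in the 2 HET IL-6 libraries.

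Within HET, IL-6 raised 10 members (20.8%) and lowered 2 (4.17%), against 8.87% and 9.41% of all tested genes. The members that rose were Gusb, Naglu, Neu1, Ppt1, Lgmn, Psap, Atp6v1g1, Atp6v1h, Atp6v0a1 and Atp6v0c, and those that fell were Ids and Arsb, so that 4 of 15 V-ATPase genes and 5 of 21 hydrolases rose. With offsets for the GC content and length of transcripts, 6 of 15 V-ATPase genes and 15 of 21 hydrolases rose, and 0 and 2 fell. Of all 13721 tested genes, 1693 then rose and 1860 fell. Atp6v0c (chr17:24163866-24169702) had 385 and 437 CPM in HET IL-6 libraries, against 276 and 298 CPM in HET controls. Both HET IL-6 libraries lay above both controls, and the log2 fold change was 0.52 ± 0.08 (edgeR adjusted p = 0.000607). Naglu, an enzyme of heparan sulfate breakdown, rose by 0.42 ± 0.09 (edgeR adjusted p = 0.00327), and Neu1 by 0.52 ± 0.10 (edgeR adjusted p = 0.00169). Atp6v1g1, a stalk subunit of V1, rose by 0.41 ± 0.08 (edgeR adjusted p = 0.0018), and Atp6v0a1, a large V0 subunit, by 0.27 ± 0.08 (edgeR adjusted p = 0.0348).

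The smaller of these calls rested on every HET library. Gusb, Psap, Atp6v1h and Atp6v0a1 were no longer called in HET when any 1 of the 4 HET libraries was left out, and Naglu was lost without HET control number 1 and Ids without HET IL-6 number 2. Without both HET number 2 libraries 3 members were called in HET, namely Ppt1, Lgmn and Arsb, and without both HET number 1 libraries 4 were called. Fitted on the 4 HET libraries alone, which lay closer together than the WT libraries, 30 members were called. Calls over all tested genes were not counted in that fit, so this count cannot be set against a share. The log2 fold change in HET was positive for all 15 V-ATPase genes under every alternative, with a median of 0.19, and for 17 of 21 hydrolases, with a median of 0.22, against 0.01 over all tested genes.

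Within WT, IL-6 raised 5 members (10.4%) and lowered 7 (14.6%), against 7.91% and 10.4% of all tested genes. The 5 that rose were the hydrolase genes Gusb, Manba, Galns, Ppt1 and Lgmn. The 7 that fell were Tfeb, Lamp1, Gaa, Naglu, Arsb, Sgsh and Atp6v1f. Spearman's correlation between the WT log2 fold change and the GC content of the transcripts was -0.429 over the members and -0.226 over all tested genes. Offsets for GC and length gave 7 members higher and 13 lower, and 11 of the 12 calls held. Of all 13721 tested genes, 1619 then rose and 1594 fell. Gaa (chr11:119267887-119285454), which breaks down glycogen, had 87.7 and 94.8 CPM in WT IL-6 libraries, against 143 and 116 CPM in WT controls, and fell by 0.51 ± 0.10 on the log2 scale (edgeR adjusted p = 0.00214). Naglu (chr11:101070012-101077672) had 86.6 and 97.4 CPM in WT IL-6 libraries, against 127 and 113 CPM in WT controls, and fell by 0.39 ± 0.09 (edgeR adjusted p = 0.00655). Naglu was lost without WT IL-6 number 1, and also with offsets for the GC content and length of transcripts, at -0.16 ± 0.06 (edgeR adjusted p = 0.0762). Sgsh was lost without WT IL-6 number 1 or WT control number 1. The calls of Lamp1, at -0.23 ± 0.08 (edgeR adjusted p = 0.0496), and Atp6v1f, at -0.29 ± 0.09 (edgeR adjusted p = 0.0372), were each lost without any 1 of 7 libraries, of the 8 left out in turn. Without both HET number 2 libraries 10 members were called in WT. The median log2 fold change was -0.04 for V-ATPase genes and -0.04 for hydrolases, against -0.01 over all tested genes.

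**Figure D3:**
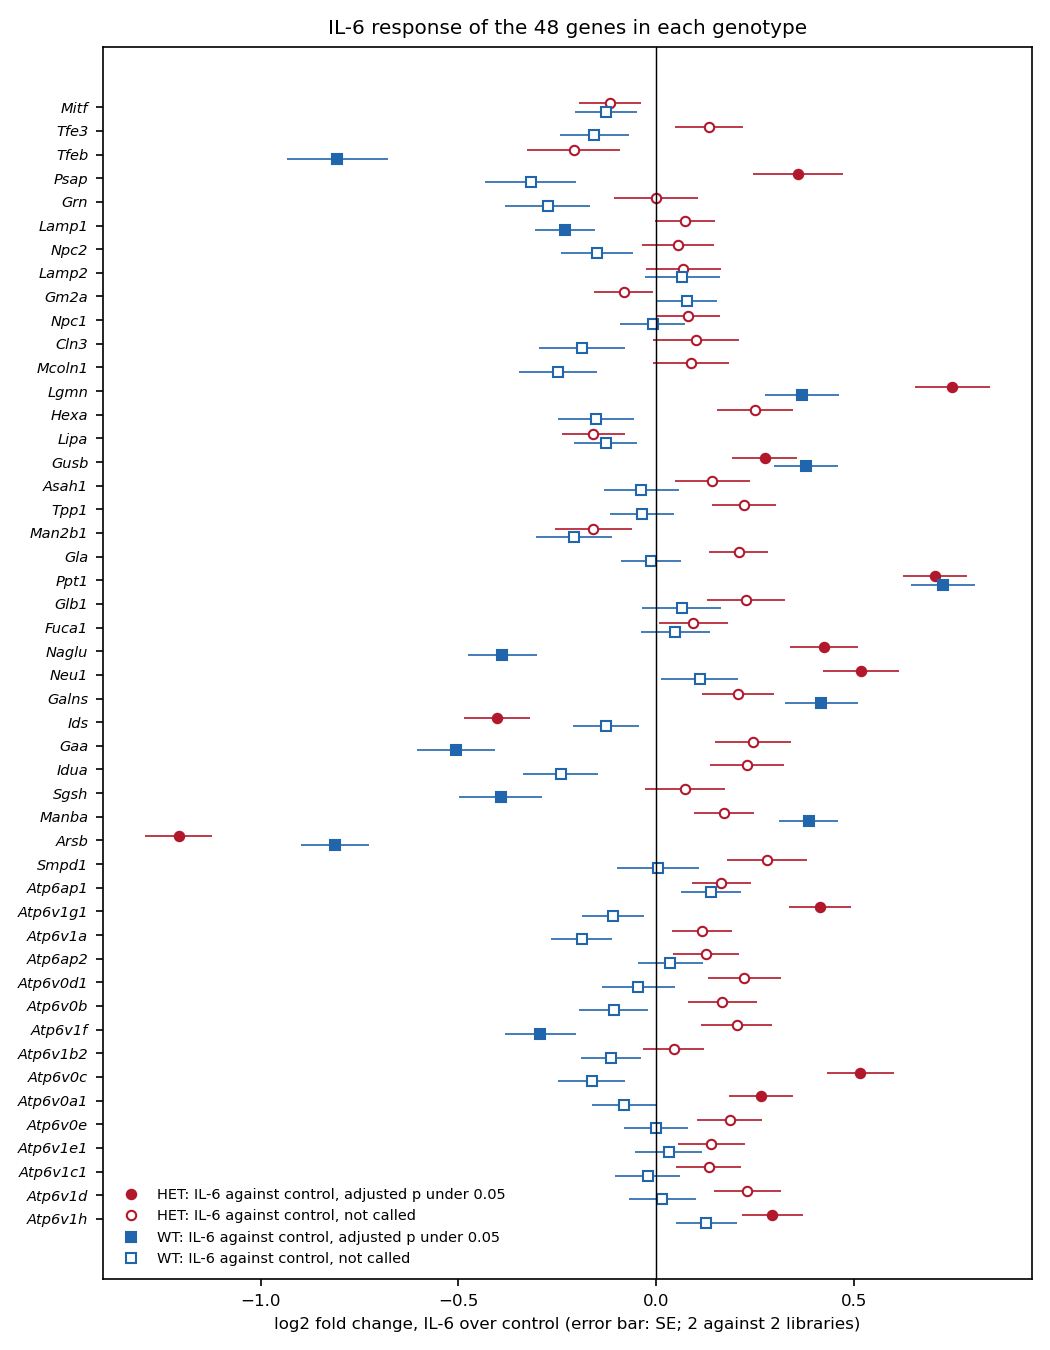
Log2 fold change of IL-6 over control for each member, with its SE, in HET (circles) and WT (squares); filled symbols passed edgeR's test at an adjusted p under 0.05. Arsb lies far left and Ppt1 far right in both genotypes, and for all 15 V-ATPase genes the HET symbol lies right of the WT symbol (14 of 15 with offsets for GC and length).

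HET against WT after IL-6 gave 13 members higher (27.1%) and 1 lower (2.08%), against 13.2% and 8.8% of all tested genes. Those higher were Tfeb, Tfe3, Mcoln1, Gaa, Naglu, Neu1, Idua, Sgsh, Smpd1, Psap, Atp6v1f, Atp6v0b and Atp6v0c, and Ids was lower. This difference moved with base composition. The classes contributed 3 of 15 V-ATPase genes and 6 of 21 hydrolases to the higher calls. Over the 48 members, Spearman's correlation between the log2 fold change and the GC content of the transcripts was 0.842, and over 13627 tested genes 0.605, as a description in which all genes share the same libraries. With offsets for GC and length in each library, 8 members were higher and 2 lower, against 5.17% and 5.23% of all tested genes, and 5 of the 14 calls held. Without both HET number 2 libraries 5 members were called, and likewise 5 without WT IL-6 number 1.

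The 5 calls that held with the offsets were Gaa, Naglu, Neu1, Atp6v1f and Atp6v0c. Gaa had 154 and 160 CPM in HET IL-6 libraries, against 87.7 and 94.8 CPM in WT IL-6 libraries. Its log2 fold change was 0.78 ± 0.10 (edgeR adjusted p = 0.000219), and 0.37 ± 0.07 with the offsets (edgeR adjusted p = 0.0029). Naglu had 151 and 154 CPM in HET IL-6 libraries, against 86.6 and 97.4 CPM in WT IL-6 libraries, with 0.73 ± 0.09 (edgeR adjusted p = 0.000193) and 0.29 ± 0.06 with the offsets (edgeR adjusted p = 0.00637). The transcripts of Gaa have a GC content of 59.1% and those of Naglu of 59.5%, near the top of the members. Atp6v0c had 385 and 437 CPM in HET IL-6 libraries, against 241 and 227 CPM in WT IL-6 libraries, which gave 0.81 ± 0.08 (edgeR adjusted p = 8.79e-05) and 0.53 ± 0.08 with the offsets (edgeR adjusted p = 0.00139). Processed copies of the gene could share reads with it. Atp6v0c-ps1 and Atp6v0c-ps2 had 1 and 160 counts against 66866 for Atp6v0c. These counts do not show how reads that match several copies were handled, so such sharing was not tested. Atp6v1f, a subunit of the central stalk of V1, was higher by 0.51 ± 0.09 (edgeR adjusted p = 0.00185) and 0.32 ± 0.06 with the offsets. Neu1 was higher by 0.46 ± 0.10 (edgeR adjusted p = 0.0045) and 0.23 ± 0.06 with the offsets, and its call was lost without HET IL-6 number 2 or WT IL-6 number 1.

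Tfeb was higher in HET by 0.79 ± 0.13 after IL-6 (edgeR adjusted p = 0.000883). Its transcripts have the highest GC content of the members, 61.3%, and with the offsets the value was 0.30 ± 0.12 (edgeR adjusted p = 0.123). Tfe3, Mcoln1, Idua, Sgsh, Smpd1, Psap and Atp6v0b, at 0.27 to 0.44, and Ids, at -0.36, also lost their calls with the offsets, and each lost it too without either HET IL-6 library or without WT IL-6 number 1. Mcoln1 encodes the calcium channel TRPML1, Idua the iduronidase and Atp6v0b another proteolipid of V0. Atp6v0b had a value of -0.02 with the offsets, and Galns, at 0.03 ± 0.09 without them, was then called lower at -0.25 (edgeR adjusted p = 0.0251).

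**Figure D4:**
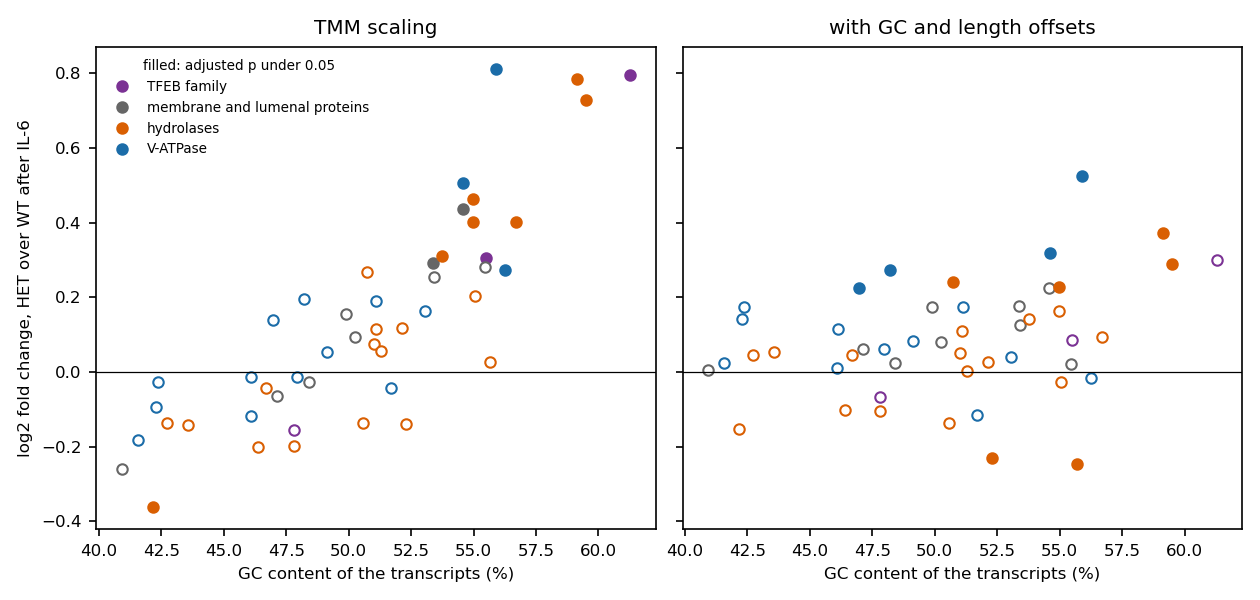
Log2 fold change of HET over WT after IL-6 against the GC content of each member's transcripts, with TMM scaling alone (left) and with offsets for GC and length (right); filled points passed edgeR's test. On the left the points climb with GC content (Spearman's correlation 0.842), and on the right Gaa, Naglu and Atp6v0c remain among the filled points.

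HET against WT in control gave 0 members higher and 2 lower in the edgeR test, against 2.81% and 2.05% of all tested genes. At an unadjusted p under 0.05, 2 members were higher and 13 lower, and DESeq2 called 0 higher and 7 lower, with no count over all tested genes taken for either. Atp6v1a (chr16:44085402-44139705), the catalytic V1 subunit, had 864 and 920 CPM in HET controls, against 1133 and 1092 CPM in WT controls, with a log2 fold change of -0.32 ± 0.08 (edgeR adjusted p = 0.032). Atp6v1g1 (chr4:63544772-63550750) had 160 and 171 CPM in HET controls, against 207 and 209 CPM in WT controls, with a log2 fold change of -0.33 ± 0.08 (edgeR adjusted p = 0.0314). Neither gene's libraries overlapped. Both calls held with offsets for GC and length, where 1 member was called higher and 7 lower, against 2.86% and 2.4% of all tested genes. Neither call held when any 1 HET library was left out, which left 0 members called by edgeR in each of those 4 cases, with 5 to 12 members at an unadjusted p under 0.05, and that of Atp6v1g1 was also lost without WT control number 2. Without both HET number 2 libraries edgeR likewise called 0, with 7 at an unadjusted p under 0.05. Spearman's correlation between log2 fold change and GC content was 0.620 over the members and 0.433 over all tested genes. The median was -0.16 over V-ATPase genes and -0.06 over hydrolases, against -0.004 over all tested genes. It moved with each WT control library, to -0.08 over V-ATPase genes and 0.02 over hydrolases (13 of 21 positive) without number 1, and to -0.22 and -0.11 without number 2.

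The response to IL-6 was more positive in HET than in WT for 8 members and more negative for 0, in the edgeR test of the difference itself, against 4.52% and 3.6% of all tested genes. At an unadjusted p under 0.05 the counts were 19 and 2, and DESeq2 called 10 and 1, again with no count over all tested genes. The 8 genes were Tfeb, Gaa, Naglu, Idua, Psap, Atp6v1f, Atp6v1g1 and Atp6v0c. The 2 groups with IL-6 and the 2 control groups enter each of the comparisons above as well, so the values are not independent of them. With offsets for GC and length, 13 members were more positive and 2 more negative, against 5.65% and 7.13% of all tested genes, and 7 of the 8 calls held. Tfeb was the exception, at 0.60 ± 0.17 (edgeR adjusted p = 0.0492) and at 0.27 ± 0.16 with the offsets (edgeR adjusted p = 0.33). Over the V-ATPase genes the difference was positive for all 15, and for 14 with the offsets or without WT IL-6 number 2, and over hydrolases for 14 of 21. The medians were 0.21 over V-ATPase genes and 0.18 over hydrolases, against 0.02 over all tested genes. Without WT control number 1 the median over hydrolases was 0.10, with 12 of 21 positive, and without HET control number 1 that over V-ATPase genes was 0.14. Spearman's correlation with GC content was 0.591 over the members and 0.263 over all tested genes.

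Naglu, Gaa and Atp6v0c kept their calls when any single library was left out. The response of Naglu was 0.42 ± 0.09 in HET and -0.39 ± 0.09 in WT, a difference of 0.81 ± 0.12 (edgeR adjusted p = 0.0014), and of 0.53 ± 0.08 with offsets for GC and length (edgeR adjusted p = 0.000853). For Gaa it was 0.25 ± 0.10 in HET and -0.51 ± 0.10 in WT, a difference of 0.75 ± 0.14 (edgeR adjusted p = 0.00498), and of 0.50 ± 0.09 with the offsets (edgeR adjusted p = 0.00268). For Atp6v0c it was 0.52 ± 0.08 in HET and -0.16 ± 0.08 in WT, a difference of 0.68 ± 0.12 (edgeR adjusted p = 0.00388), and of 0.52 ± 0.11 with the offsets (edgeR adjusted p = 0.00782). Psap (chr10:60277627-60302597) had 5710 and 5648 CPM in HET IL-6 libraries, against 4355 and 4506 CPM in HET controls, and 3823 and 4564 CPM in WT IL-6 libraries, against 5908 and 4546 CPM in WT controls. The WT libraries of Psap overlapped between treatments, and the difference was 0.68 ± 0.16 (edgeR adjusted p = 0.0209). That call was lost without any 1 HET library or without WT IL-6 number 1. Atp6v1g1 differed by 0.52 ± 0.11, Atp6v1f by 0.50 ± 0.13 and Idua by 0.47 ± 0.13 (edgeR adjusted p = 0.0108, 0.0295 and 0.0445). Atp6v1g1 was lost without either HET IL-6 library or HET control number 1, Atp6v1f without any 1 HET library, WT IL-6 number 1 or WT control number 1, and Idua without either HET IL-6 library, HET control number 1, WT IL-6 number 1 or WT control number 1. Tfeb was lost without any 1 HET library, WT IL-6 number 2 or WT control number 1. Without both HET number 2 libraries 1 member was called, and without both HET number 1 libraries edgeR called 0, with 8 at an unadjusted p under 0.05.

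**Figure D5:**
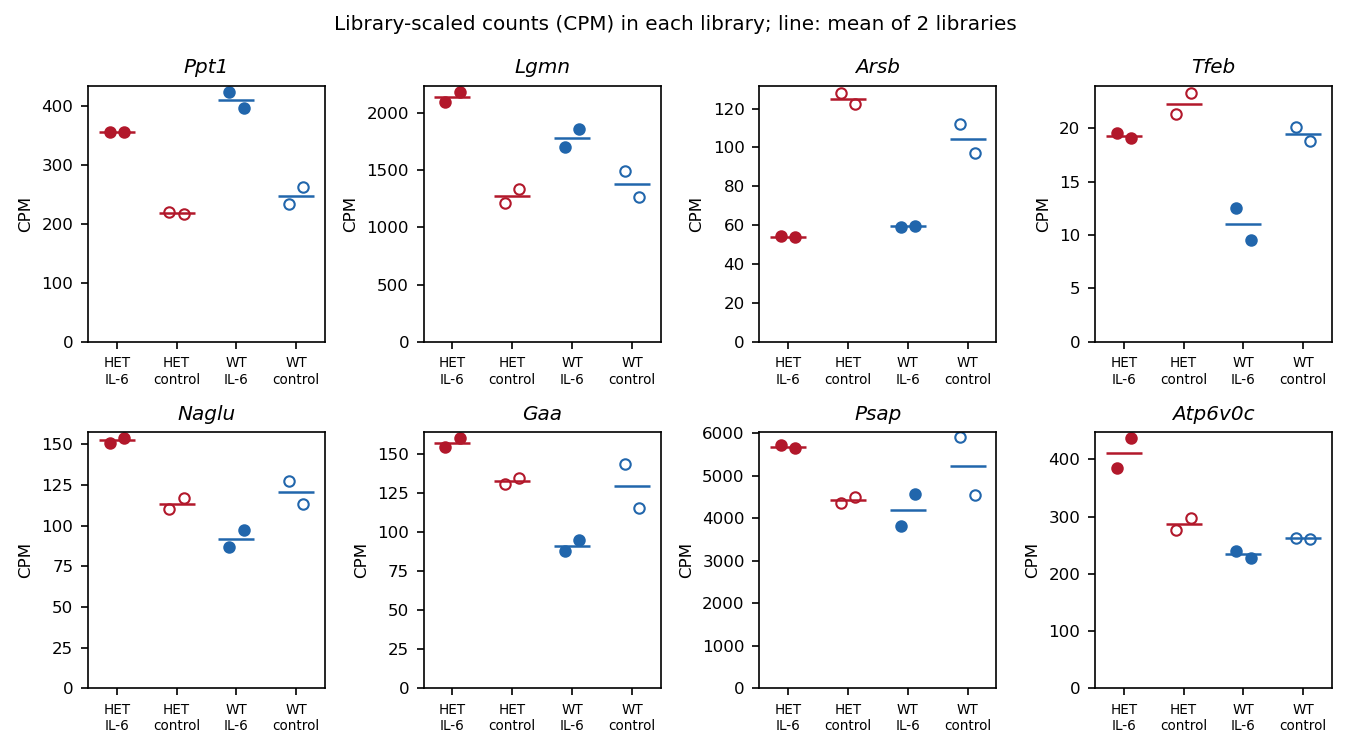
CPM of Ppt1, Lgmn, Arsb, Tfeb, Naglu, Gaa, Psap and Atp6v0c in each library, with IL-6 filled and control open, HET in red and WT in blue, and a line for the mean of 2 libraries. Ppt1 and Arsb separate IL-6 from control in both genotypes, while for Naglu, Gaa and Atp6v0c the HET IL-6 libraries are the highest and the WT IL-6 libraries the lowest.

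In the responses to IL-6, log2 fold changes spread less over the V-ATPase genes than over the hydrolases. In the response to IL-6 averaged over genotype, all 15 V-ATPase genes lay within 0.25 of no change on the log2 scale, as did 13 of 21 hydrolases and 9284 of 13721 tested genes. The SD of the log2 fold changes was 0.078 over V-ATPase genes and 0.35 over hydrolases, against 0.45 over all tested genes. In HET these SDs were 0.12, 0.41 and 0.52, and in WT 0.12, 0.35 and 0.53. Between the genotypes after IL-6 the SDs came closer, at 0.26 over V-ATPase genes and 0.31 over hydrolases, against 0.44 over all tested genes. Between the genotypes in control they were 0.14 over V-ATPase genes and 0.15 over hydrolases, and 10 of 15 V-ATPase genes lay within 0.25 of no change, as did 18 of 21 hydrolases. The V-ATPase genes were the more highly expressed class, and levels and counting error were not matched between the classes.

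As a class balance, the mean log2 CPM of the 15 V-ATPase genes minus that of the 21 hydrolases was taken in each library. The balance was 0.20 and 0.19 in HET IL-6 libraries, against 0.12 and 0.14 in HET controls, and 0.23 and 0.16 in WT IL-6 libraries, against 0.19 and 0.26 in WT controls. The pooled SD within groups was 0.037. IL-6 minus control was 0.067 in HET, and -0.029 in WT, which is within that SD. HET minus WT was -5.35e-06 after IL-6 and -0.097 in control. With this TMM scaling, HET controls had the lowest balance of the 4 groups, and their libraries did not overlap with those of any other group. With offsets for GC and length they overlapped with WT IL-6 libraries, at 0.144 and 0.171 in HET controls and 0.158 and 0.123 in WT IL-6 libraries. HET minus WT was then 0.095 after IL-6 and -0.054 in control. Median GC content was 48.2% over V-ATPase genes and 51.3% over hydrolases.

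In the main edgeR fit, 25 of the 48 members were called in at least 1 of the 6 comparisons and 23 in none. Alternatives called some of the 23. With offsets for GC and length, 2 of 2 proteases were higher with IL-6 in HET, Tpp1 included. Those called in none in the main fit were Mitf, the membrane proteins Lamp2, Npc1 and Cln3, the hydrolases Hexa, Gla, Glb1, Man2b1, Fuca1, Lipa, Asah1 and Tpp1, the cofactors Gm2a, Npc2 and Grn, and the V-ATPase genes Atp6v1b2, Atp6v1c1, Atp6v1d, Atp6v1e1, Atp6v0d1, Atp6v0e, Atp6ap1 and Atp6ap2. Their log2 fold changes for IL-6 averaged over genotype lay between -0.18 ± 0.07 for Man2b1 and 0.15 ± 0.05 for Atp6ap1, an accessory protein of the pump (edgeR adjusted p = 0.0675 and 0.0517). For HET against WT after IL-6 they lay between -0.26 ± 0.09 for Lamp2 and 0.28 ± 0.11 for Grn (edgeR adjusted p = 0.0636 and 0.0739). Asah1, the acid ceramidase, had 432 and 440 CPM in HET controls, against 495 and 592 CPM in WT controls, at -0.32 ± 0.09 (edgeR adjusted p = 0.0712). Lipa, the acid lipase that frees cholesterol and fatty acids from lipoproteins, had 1415 and 1335 CPM in HET IL-6 libraries, against 1579 and 1491 CPM in HET controls, at -0.16 ± 0.08 (edgeR adjusted p = 0.196). Hexa had the largest difference of response among these genes, 0.40 ± 0.14 (edgeR adjusted p = 0.0892). Cln3, a membrane protein whose loss causes a juvenile neuronal storage disease in humans, shares 7.65% of its exons with Apobr, which had 36989 counts against 27166 for Cln3, so its level is uncertain.

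Members with and without TCACGTG in their promoter were set side by side, for the 41 with a window. To IL-6 averaged over genotype, 1 of 13 with the motif rose in the edgeR test, with a median log2 fold change of 0.02, and 5 of 28 without it rose and 3 fell, with a median of 0.06. Of all tested genes, 10.8% rose and 12.8% fell. In HET, 2 rose with the motif, and 6 rose and 2 fell without it, against 8.87% and 9.41% of all tested genes. In WT, 1 rose and 4 fell with the motif, and 3 rose and 3 fell without it. Of all tested genes, 7.91% rose in WT and 10.4% fell. After IL-6, HET was higher than WT for 5 of 13 with the motif and 8 of 28 without it, against 13.2% of all tested genes. The medians were 0.26 and 0.07. In control, 1 gene with the motif was lower in HET and 0 without it, against 2.05%. The IL-6 response was more positive in HET for 2 with the motif and 5 without it, against 4.52%. Median GC content of the transcripts was 53.1% with the motif and 51.1% without it. Its part in these values was not tested, and the 2 sets were not counted with offsets for GC and length.

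Of 85 other lysosomal genes in 5 lists, 78 were tested. IL-6 averaged over genotype raised 16 and lowered 10 of them, against the 10.8% and 12.8% of all tested genes given above. In the list of other hydrolases, 8 of 18 genes rose, among them Pla2g15, a lysosomal phospholipase, at 0.53 ± 0.07 and Naaa at 0.43 ± 0.06. That list also holds Hgsnat, an acetyltransferase of heparan sulfate breakdown and not a hydrolase, which averaged 0.42 ± 0.08. Hgsnat rose in WT, by 1.02 ± 0.12, while HET IL-6 libraries had 169 and 187 CPM against 223 and 182 CPM in HET controls. Of 22 genes of TFEB family control, 3 rose and 4 fell. Tfec, the remaining relative of TFEB, had 42.6 and 44.7 CPM in HET IL-6 libraries, against 19.2 and 21.9 CPM in HET controls, and 43.8 and 46.0 CPM in WT IL-6 libraries, against 26.8 and 27.8 CPM in WT controls. Every IL-6 library lay above every control, and Tfec rose by 0.90 ± 0.07 (edgeR adjusted p = 1.63e-07). Rptor, the mTORC1 subunit raptor, fell by 0.34 ± 0.06, and Lamtor4, a subunit of the Ragulator complex that anchors mTORC1 at lysosomes, by 0.41 ± 0.07. Of 19 other membrane proteins, 2 rose and 3 fell, and Tpcn1, a cation channel, fell by 0.99 ± 0.06 (edgeR adjusted p = 1.57e-08). Of 10 genes of enzyme targeting and maturation, 2 rose and 2 fell. Sort1, the receptor sortilin, fell by 0.88 ± 0.08, and Igf2r, the large mannose phosphate receptor, rose by 0.39 ± 0.06. Of 16 other V-ATPase isoforms and assembly factors, 9 were tested, of which 1 rose and 1 fell.

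Of the 78 tested genes of these lists, 13 rose and 7 fell with IL-6 in HET, where 8.87% and 9.41% of all tested genes did, and 8 rose and 16 fell in WT, where 7.91% and 10.4% did. The response was more positive in HET for 10 and more negative for 3, against 4.52% and 3.6% of all tested genes. Atp6v0d2, a V0 isoform that is high in osteoclasts, had 16.3 and 9.66 CPM in HET IL-6 libraries, against 8.09 and 8.28 CPM in HET controls, and 7.36 and 6.81 CPM in WT IL-6 libraries, against 17.5 and 15.2 CPM in WT controls. Its difference of response was 1.84 ± 0.28 (edgeR adjusted p = 0.00196), with a WT response of -1.21 ± 0.20, and its HET IL-6 libraries stood far apart. Atp6v0d2 is among the 7 osteoclast markers summed above, and held 17.5 and 15.2 CPM in WT controls, where the sums were 22.2 to 23.1 CPM. The lower sum in WT IL-6 libraries, 14.2 to 15.3 CPM, is therefore not a separate observation. Hgsnat had 169 and 187 CPM in HET IL-6 libraries, against 223 and 182 CPM in HET controls, and 314 and 312 CPM in WT IL-6 libraries, against 137 and 173 CPM in WT controls. It rose in WT by 1.02 ± 0.12 (edgeR adjusted p = 2.59e-05), and the difference was -1.20 ± 0.16 (edgeR adjusted p = 0.000677). Clcn7, the lysosomal chloride transporter, differed by 0.74 ± 0.16 (edgeR adjusted p = 0.0121), and 0.67 with offsets for GC and length. HET against WT gave 15 higher and 10 lower after IL-6, against 13.2% and 8.8% of all tested genes, and 6 higher and 7 lower with the offsets. In control it gave 2 higher and 7 lower, against 2.81% and 2.05%, and 1 higher and 6 lower with the offsets.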

How the data were processed

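The values used were raw counts of reads per gene for 8 libraries, deposited by the authors as a single table. Per the submitters' processing notes, fastp 0.12.4, STAR 2.7.9a, SAMtools 1.9 and featureCounts 1.6.2 were used with build mm10; the sources used here give neither the strand setting nor the annotation release, so reads of a member and of a gene overlapping its exons could not be told apart. Exon lengths of all 48 members equalled those of GENCODE M21, which gave coordinates and GC content. Columns were matched to libraries by name. The table held 26 symbols that had turned into dates, none of them a member.

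Genes were kept by filterByExpr (minimum count 10). Libraries were scaled by TMM, and a quasi-likelihood F test was fitted in R 4.3.3 with edgeR 4.0.16 to all 8 libraries, with 1 mean for each of the 4 groups, robust dispersions and 4 residual degrees of freedom. Tests were 2-sided, p-values were adjusted over 13721 genes by the Benjamini-Hochberg method, and genes under 0.05 were called. The SE is the size of the log2 fold change divided by the root of F. The fit was tested on simulated counts. A floor of 3 counts was 0.0608 to 0.161 CPM, below every member's value. In no group did the 2 libraries agree within sampling noise. Any member could be named; of the other lysosomal lists, up to 5 called genes each way with the largest change and a group mean of at least 5 CPM, in each comparison.

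Alternatives were DESeq2 1.42.0, RLE size factors, total counts, no filter, a replicate block, only the groups compared, offsets for GC content (known for 99.3% of tested genes) and length, and each library left out. Promoters came from RefSeq (GRCm38.p6). The members and lists were chosen with earlier results of these data known.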

Additional observations from a re-analysis of the deposited data

Results flagged for a closer look

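The IL-6 response differed between the genotypes, by the edgeR test of the difference itself (HET response minus WT response, on the log2 scale), for 8 of the 48 members. It was more positive in HET for all 8, while 4.52% of all tested genes were more positive and 3.6% more negative. The differences were 0.60 for Tfeb, 0.75 for Gaa, 0.81 for Naglu, 0.47 for Idua, 0.68 for Psap, 0.50 for Atp6v1f, 0.52 for Atp6v1g1 and 0.68 for Atp6v0c. Naglu is the only one of them that was called in both genotypes with opposite signs, at 0.42 in HET and -0.39 in WT, and the WT call was lost with offsets for GC and length (-0.16, edgeR adjusted p = 0.0762). The part of the GC relation in these differences was not tested beyond those offsets, with which all but Tfeb kept their calls. Only 3 of the 8 calls, those of Naglu, Gaa and Atp6v0c, held when any single library was left out.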

How the results depend on the processing

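Over 6 comparisons and 48 members, calls were counted under each alternative. Offsets for GC content and length gave 18 members for IL-6 averaged over genotype (11 without them), 24 in HET (12), 20 in WT (12), 8 for HET against WT in control (2) and 15 for the difference of responses (8). Calls over all 13721 tested genes rose as well. They were 4231 averaged over genotype (3243 without the offsets), 3553 in HET (2508), 3213 in WT (2515), 722 in control (666) and 1753 for the difference (1114). For HET against WT after IL-6, the offsets turned the sign of Galns (-0.245) and Atp6v0b (-0.0159), among members called with or without them. Signs of uncalled members turned as well, and 38 of 48 members were positive with the offsets, against 29 without them. Of all tested genes 1426 were called, against 3021 without the offsets. Fits on only the groups compared gave 30 members in HET and 0 for HET against WT in control, where DESeq2 gave 7. Calls over all tested genes were not counted for those fits, for DESeq2 or with libraries left out. With 1 library left out, or both HET libraries of a number, the counts were 4 to 16 for IL-6 averaged over genotype, 3 to 22 in HET, 8 to 19 in WT, 5 to 23 for HET against WT after IL-6, 0 to 7 in control and 0 to 23 for the difference; a group left with 1 library was assumed to vary like the others. RLE factors, total counts and no filter moved no count of members by over 1.5 times.

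The class balance (V-ATPase minus hydrolases) was -0.0705 with the offsets for IL-6 in WT, 0.0952 for HET against WT after IL-6, -0.0539 in control and 0.149 for the difference. With libraries left out it was -0.0668 to 0.00799 in WT, -0.134 to -0.0595 in control and 0.0595 to 0.134 for the difference, and its sign in WT turned without WT control number 2 (0.00799) or without WT IL-6 number 2 (0.00557). The cause of these shifts was not tested.

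A block by replicate number gave 0 members for HET against WT in control and 4 for the difference, and a block by genotype and number gave 3 for the difference. The labels do not say that a number marks a shared mouse, and same-numbered libraries of 2 groups deviated together with correlations of -0.113 to 0.152, so the pairing is not established. The planned motif window of 200 bases around the start was not run. In the 150 bases nearest the start, a window chosen after seeing the data, TCACGTG was in 9 of 41 promoters (22.0%), against 2.95% of all promoters.

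All members lay above the floor of 3 counts in every library.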

Other observations

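The sectors of the V-ATPase were also compared, after their values were seen. For HET against WT after IL-6, the median log2 fold change was 0.19 over the 5 V0 genes, all of them positive (Atp6v0b at -0.02 with offsets for GC and length), and -0.01 over the 8 V1 genes, of which 3 were positive. Median GC content was 53.1% over the V0 genes and 47.0% over the V1 genes. In control, the medians were -0.05 over V0 and -0.25 over V1. With offsets for GC and length the medians were 0.17 over V0 and 0.13 over V1 after IL-6, where all 8 V1 genes were positive, and -0.14 over V0 and -0.13 over V1 in control.

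Enzymes of heparan sulfate breakdown, likewise chosen after their values were seen, did not respond alike. The difference of the IL-6 response, HET minus WT, was 0.81 ± 0.12 for Naglu and 0.47 ± 0.13 for Idua, 0.47 ± 0.15 for Sgsh, which did not pass the edgeR test (adjusted p = 0.066), -0.28 ± 0.12 for Ids, which did not pass it either (adjusted p = 0.178), and -1.20 ± 0.16 for Hgsnat.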
